A study of Homo sapiens with 6 samples.

Results

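Bone morphogenetic proteins (BMPs) are secreted ligands that pair a type I with a type II serine/threonine kinase receptor, and the activated receptor phosphorylates SMAD1, SMAD5 or SMAD9, which enters the nucleus with SMAD4. The best-known direct targets are the ID genes, whose products are helix-loop-helix proteins that lack a DNA-binding region and hold E proteins away from DNA. The inhibitory SMADs and secreted antagonists limit the signal, and ID1 and ID3 have been studied as drivers of lung colonization by triple negative breast cancer (TNBC) cells.

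The RNA-seq values of 10 genes of this pathway are described here. They are the ligand BMP4, the type I receptor BMPR1A, the type II receptor BMPR2, the transmembrane BMP-binding protein CRIM1, the secreted antagonist GREM1, the inhibitory SMAD6 and the targets ID1, ID2, ID3 and ID4. All 10 were found by symbol among the 23228 genes of the count tables. By the GENCODE annotation BMPR2, CRIM1 and ID2 lie on chromosome 2, GREM1 and SMAD6 on chromosome 15, ID3 on chromosome 1, ID4 on chromosome 6, BMPR1A on chromosome 10, BMP4 on chromosome 14 and ID1 on chromosome 20. They were chosen with the difference between control and PELP1-KD cells already known, so their differences are given as a description. Where it is said that a member was past the threshold, an adjusted p-value of 0.05 in the fit over all genes, this only places the member among all genes and is no test of the members. The cells are MDA-MB-231, a human TNBC line, with a stably expressed shRNA under puromycin selection in every sample. The control-shRNA group (n = 3) carried a non-targeted hairpin, and the PELP1-KD group (n = 3) carried a single hairpin against PELP1, a coregulator of transcription factors. Nothing in the labels states that replicates came from separate selections or cultures, so the spread between them may be technical.

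Reads on genes summed to between 17304864 and 23132102 per replicate, so that 3 reads, taken as the floor of detection, corresponded to between 0.127 and 0.177 CPM (counts relative to library sizes scaled by TMM). PELP1 averaged 57.8 CPM ± 2.14 (SD, n = 3) with the control hairpin against 29.6 CPM ± 0.876 (SD, n = 3) with the PELP1 hairpin (p = 0.1 by exact two-sided permutation, and 3 against 3 cannot give a smaller p). The markers of a mesenchymal TNBC line were present, with VIM, CD44 and EGFR summing to between 3465 and 3620 CPM in control and between 2851 and 2868 CPM in PELP1-KD replicates (each of the 3 was lower in every PELP1-KD replicate), while ESR1 and PGR together reached at most 0.169 CPM. Of 3 fibroblast markers, DCN had no read and LUM between 0 and 6 reads per replicate, whereas PDGFRB moved with the knockdown, and the summed list went from between 14.1 and 17.0 CPM in control to between 44.9 and 47.1 CPM in PELP1-KD replicates. The luminal markers CDH1, EPCAM and KRT19 summed to between 95.8 and 115 CPM in control and between 56.0 and 64.1 CPM in PELP1-KD replicates, with KRT19 at 97.8 against 50.7 CPM, EPCAM at 9.46 against 9.57 CPM and CDH1 at no more than 4 reads. The leukocyte marker PTPRC had no read, and the endothelial markers PECAM1 and CDH5 together stayed at or under 0.676 CPM. The part of other cells in the values below was not tested, and in bulk RNA fewer cells that express a gene and less of its RNA per cell cannot be told apart. Control replicate 1 stood farther from the other control replicates (chi-square per degree of freedom 3.84 and 4.06) than these did from each other (1.46), and PELP1-KD replicate 2 stood farther from the other PELP1-KD replicates (2.75 and 2.71) than these did from each other (1.51).

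In the control cells CRIM1 was the most abundant of the 10 genes. Levels of different genes were compared as RPKM, the CPM divided by the length of the exons in kilobases. CRIM1 had 115 RPKM ± 5.64 (SD, n = 3), followed by ID1 with 89.7 RPKM ± 8.05, BMP4 with 70.7 RPKM ± 2.19 and ID3 with 45.8 RPKM ± 2.60. BMPR2 had 7.76 RPKM ± 0.376 and BMPR1A 1.54 RPKM ± 0.159, and ID2 lay close to the type I receptor at 1.19 RPKM ± 0.146. SMAD6 had 0.297 RPKM ± 0.0577, ID4 had 0.123 RPKM ± 0.0634 and GREM1 had no read. The ranges of neighbors in this order did not overlap over the 3 control replicates. With the longest coding transcript in place of all exons as the length, BMP4 (114 RPKM) stood above ID1 (89.7 RPKM), and no other neighbors changed places in control cells. In PELP1-KD cells ID1 came first at 90.9 RPKM ± 3.03, CRIM1 followed at 56.6 RPKM ± 0.200, and the ranges of ID3 (49.2 RPKM ± 2.75) and BMP4 (47.4 RPKM ± 1.65) overlapped, as did those of BMPR1A (1.28 RPKM ± 0.0874) and ID2 (1.19 RPKM ± 0.172). By the longest coding transcript CRIM1 in PELP1-KD cells (68.2 RPKM) came after ID1, BMP4 (76.2 RPKM) and ID3 (70.7 RPKM), but the ranges of BMP4 and ID3 and those of ID3 and CRIM1 overlapped.

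The ligand BMP4, known for its part in embryonic patterning and in bone formation, was lower in PELP1-KD cells. BMP4 had 210, 222 and 221 CPM in control replicates 1, 2 and 3 and 140, 148 and 150 CPM in PELP1-KD replicates 1, 2 and 3. Every PELP1-KD replicate lay below every control replicate. The log2FC of BMP4 was -0.58 (standard error, SE, 0.038), which is 0.671 times the control level. Of 13 other ways to process the counts, none took the log2FC of BMP4 outside -0.60 to -0.53.

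BMP4 made up nearly all of the BMP-type ligand transcripts. Summed with 13 other ligand genes, of which 8 had any read, BMP4 held 95.4% ± 0.224 (SD, n = 3) of the RPKM in control cells and 94.2% ± 0.154 (SD, n = 3) in PELP1-KD cells. BMP8A and BMP8B are near-identical copies, so their part of the sum is uncertain. The summed ligand level was 74.1 RPKM ± 2.19 (SD, n = 3) in control and 50.3 RPKM ± 1.78 (SD, n = 3) in PELP1-KD cells. BMP2, the ligand closest to BMP4, was chosen for mention after its values were seen, with 13, 22 and 3 reads in control and 1, 2 and 1 reads in PELP1-KD replicates. It was below the filter on low counts and was not tested.

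CRIM1 is a membrane protein with cysteine-rich repeats like those of the antagonist chordin, and it is known to bind BMPs. Its log2FC was the farthest from 0 among the 8 tested members. CRIM1 had 865, 802 and 790 CPM in control replicates and 403, 403 and 405 CPM in PELP1-KD replicates. The groups stood far apart, and the PELP1-KD replicates lay close together. The log2FC of CRIM1 was -1.02 (SE 0.032), or 0.493 times the control level, and it stayed between -1.05 and -0.97 under the 13 other settings. Per exon length CRIM1 stood at 1.63 ± 0.132 (SD, n = 3) times the level of BMP4 in control cells and at 1.20 ± 0.0399 (SD, n = 3) times its level in PELP1-KD cells. CRIM1 shares 177 exon bases with an antisense gene, and whether reads were counted by strand is not given in the sources used here.

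Of the receptors among the members, BMPR1A was slightly lower and BMPR2 was level. BMPR1A, which is also called ALK3, had 19.3, 17.7 and 15.7 CPM in control replicates and 15.3, 13.5 and 15.0 CPM in PELP1-KD replicates. Its groups did not overlap, but control replicate 3 and PELP1-KD replicate 1 were close to each other. The log2FC of BMPR1A was -0.27 (SE 0.087), and it no longer passed the threshold under DESeq2, without control replicate 1 (-0.20) or without PELP1-KD replicate 2 (-0.21). The annotation holds the processed pseudogenes BMPR1AP1 and BMPR1AP2, so that reads shared with them make the counts of BMPR1A uncertain. BMPR2, the type II receptor that is largely selective for BMPs, had 97.4, 90.6 and 89.0 CPM in control replicates and 93.8, 89.0 and 94.2 CPM in PELP1-KD replicates. These ranges overlapped, with a log2FC of 0.0011 (SE 0.046), and the sign of the difference depended on the setting.

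SMAD6 blocks the type I receptor and competes for SMAD4, and it is itself switched on by BMP signaling. SMAD6 had 2.37, 2.16 and 3.10 CPM in control replicates and 2.77, 3.75 and 3.91 CPM in PELP1-KD replicates. Control replicate 3 lay above PELP1-KD replicate 1, so the groups overlapped. The log2FC of SMAD6 was 0.48 (SE 0.18) from between 40 and 92 reads per replicate. It no longer passed the threshold under DESeq2, without control replicate 1 (0.44) or 2 (0.35), and without PELP1-KD replicate 2 (0.43) or 3 (0.38). GREM1, an antagonist of BMP2 and BMP4, had 0 reads in each of the 6 replicates, which allows at most 0.177 CPM in any of them.

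**Figure D1:**
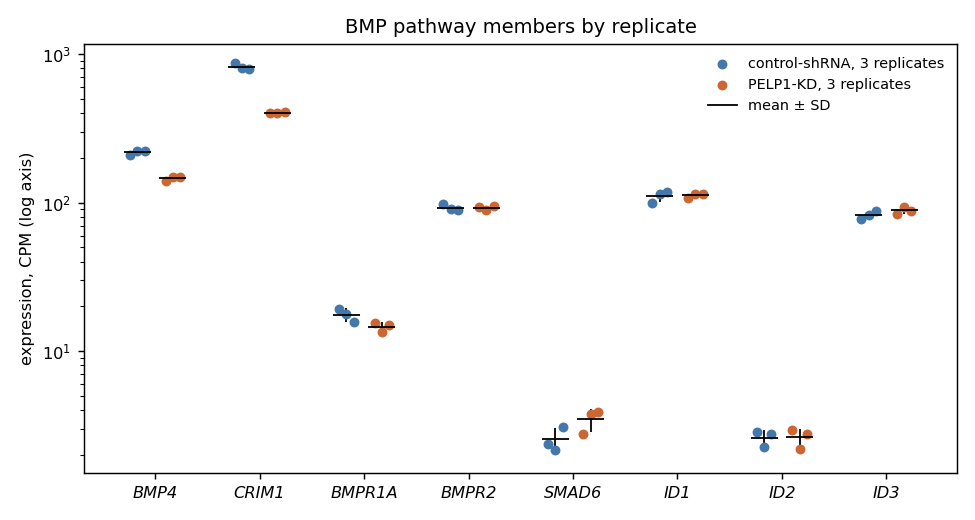
Expression in CPM on a log axis of the 8 tested members in 3 control-shRNA (blue) and 3 PELP1-KD (orange) replicates, with black lines for the mean and the SD. BMP4 and CRIM1 stand apart between groups (BMP4 at 218 against 146 CPM and CRIM1 at 819 against 403 CPM), while BMPR2 and the ID genes overlap.

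The ID genes were nearly level between groups. ID1 had 99.3, 115 and 118 CPM in control replicates and 108, 115 and 114 CPM in PELP1-KD replicates. The PELP1-KD values lay inside the range of the controls. Its log2FC was 0.02 (SE 0.052). ID3 had 77.8, 81.9 and 87.1 CPM in control and 83.9, 93.7 and 87.8 CPM in PELP1-KD replicates. These ranges overlapped, with a log2FC of 0.11 (SE 0.051), which was positive under all 13 other settings (0.064 to 0.15).

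ID2 was the rare member of the 3 tested ID genes. It had 2.84, 2.24 and 2.76 CPM in control and 2.92, 2.20 and 2.76 CPM in PELP1-KD replicates, from between 47 and 65 reads. The log2FC of ID2 was 0.02 (SE 0.18). At this depth a difference of the size of this error, or somewhat larger, would not be told apart from none. ID2 shares 38 exon bases with ID2-AS1 on the other strand. ID4 had 2, 8 and 7 reads in control and 0, 1 and 3 reads in PELP1-KD replicates. These counts are near the floor of 3 reads, ID4 was not tested as it fell under the filter on low counts, and no fold is given. With no such filter it was past the threshold on the lower side. No tested ID gene was past the threshold by edgeR, DESeq2 or voom (0 of 3 each), also at an unadjusted p-value of 0.05 by edgeR and DESeq2. Under other settings of edgeR, ID3 was past the threshold on the higher side with library totals alone (0.15), without control replicate 3 (0.15) and in the fit with a replicate block (0.11), whose numbers do not pair the samples.

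Each of ID1, ID3 and ID2 held a similar share of the ID family in control and in PELP1-KD cells. The 4 genes summed to 137 RPKM ± 10.5 (SD, n = 3) in control and 141 RPKM ± 5.42 (SD, n = 3) in PELP1-KD cells. ID1 held 65.5% ± 1.11 (SD, n = 3) of this sum in control and 64.3% ± 0.635 (SD, n = 3) in PELP1-KD cells, and ID3 held 33.5% ± 1.0 and 34.8% ± 0.772. ID2 held 0.872% ± 0.150 and 0.847% ± 0.150, and ID4, with at most 8 reads per replicate, held 0.0878% ± 0.0413 and 0.0173% ± 0.0193. ID1 and ID3 thus made up almost the whole of the ID transcripts, at a ratio of ID1 over ID3 of 1.96 ± 0.0911 (SD, n = 3) in control and 1.85 ± 0.0585 (SD, n = 3) in PELP1-KD cells. The ranges of this ratio overlapped between groups.

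**Figure D2:**
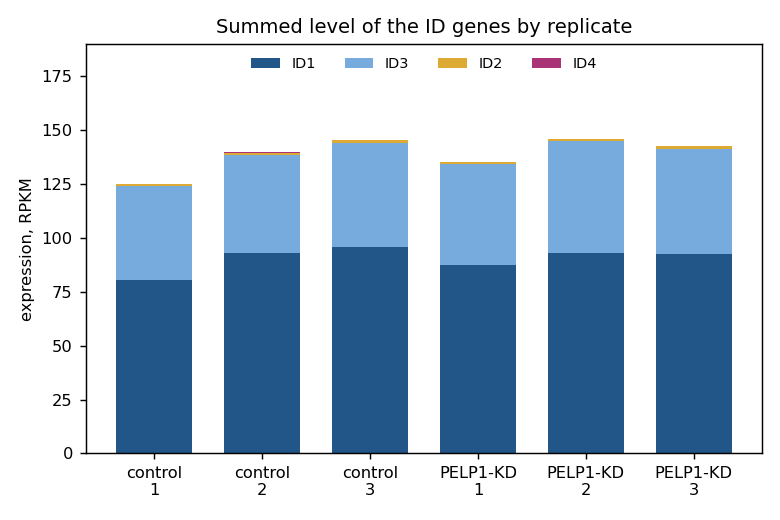
Summed RPKM of ID1, ID3, ID2 and ID4 in each of the 6 replicates, stacked by gene. The total lies between 125 and 146 RPKM in every replicate, and ID1 and ID3 fill almost all of each bar.

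Of the 8 tested members, 3 (BMP4, BMPR1A and CRIM1) were past an adjusted p-value of 0.05 on the lower side and 1 (SMAD6) on the higher side in edgeR's quasi-likelihood test over all 12796 tested genes. Of all tested genes, 24.2% passed on the lower and 22.7% on the higher side. Scaled by library totals alone, 2418 genes passed on the lower and 3817 on the higher side, against 3103 and 2904 under TMM. Groups did not overlap in 3 of the 8 members and in 55% of all tested genes. The median log2FC was 0.0092 over the 8 members and 0.0014 over all tested genes. These counts describe the members, which were chosen with this contrast known.

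**Figure D3:**
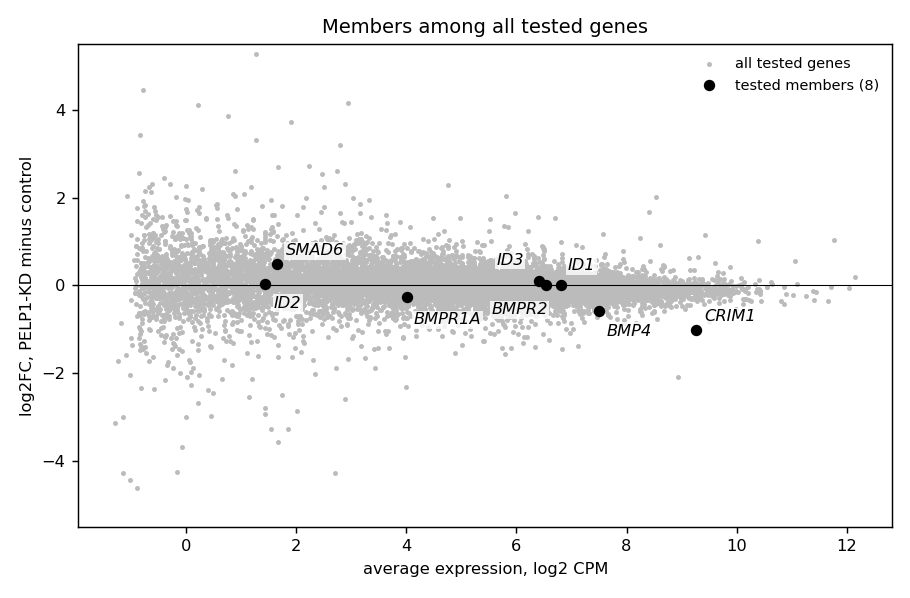
Log2FC (PELP1-KD minus control) against average log2 CPM for the 12796 tested genes (grey) and the 8 tested members (black). CRIM1 lies at -1.02 and BMP4 at -0.58 among abundant genes, and ID1, ID2, ID3 and BMPR2 lie close to 0.

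Promoter sequences are shown for ID1, ID2, ID3 and SMAD6, the tested targets of BMP SMADs among the members. Whether these sequences bear on the levels of the genes was not tested. RefSeq promoters on GRCh38.p14, from 250 bases before to 50 bases after a start (the counts were made on hg19), were found for 9 of the 10 members (all but CRIM1), with 12 starts in all. The words searched on both strands were GTCTAGAC (a palindromic SMAD box), GGCGCC (a GC-rich word bound by BMP SMADs), GTCTG (a short SMAD box), TATAAA and CCAAT, and they were chosen after the sequences were seen. Capitals mark these words or their reverse complement, and GTCTAGAC and GGCGCC read the same on both strands. The promoters lie at chr20:31605039-31605338 on the plus strand (ID1), chr2:8681806-8682105 on the plus strand (ID2), chr1:23559452-23559751 on the minus strand (ID3) and chr15:66701986-66702285 on the plus strand (SMAD6).
ID1: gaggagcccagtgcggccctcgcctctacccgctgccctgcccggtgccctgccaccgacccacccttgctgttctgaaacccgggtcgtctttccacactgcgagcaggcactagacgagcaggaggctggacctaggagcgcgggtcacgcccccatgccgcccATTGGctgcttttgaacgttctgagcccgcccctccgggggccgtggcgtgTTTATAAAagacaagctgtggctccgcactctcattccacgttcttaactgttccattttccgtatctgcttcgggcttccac
ID2: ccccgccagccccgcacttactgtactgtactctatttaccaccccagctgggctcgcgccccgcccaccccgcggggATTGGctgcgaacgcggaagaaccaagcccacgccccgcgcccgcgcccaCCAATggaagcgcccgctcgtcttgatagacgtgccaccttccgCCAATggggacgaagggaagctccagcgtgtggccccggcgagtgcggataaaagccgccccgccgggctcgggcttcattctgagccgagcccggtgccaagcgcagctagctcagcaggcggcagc
ID3: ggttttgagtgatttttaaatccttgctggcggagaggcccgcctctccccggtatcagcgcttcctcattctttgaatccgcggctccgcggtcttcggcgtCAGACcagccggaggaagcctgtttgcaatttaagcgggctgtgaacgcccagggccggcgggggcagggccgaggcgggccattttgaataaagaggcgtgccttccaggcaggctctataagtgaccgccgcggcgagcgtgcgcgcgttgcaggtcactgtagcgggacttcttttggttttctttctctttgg
SMAD6: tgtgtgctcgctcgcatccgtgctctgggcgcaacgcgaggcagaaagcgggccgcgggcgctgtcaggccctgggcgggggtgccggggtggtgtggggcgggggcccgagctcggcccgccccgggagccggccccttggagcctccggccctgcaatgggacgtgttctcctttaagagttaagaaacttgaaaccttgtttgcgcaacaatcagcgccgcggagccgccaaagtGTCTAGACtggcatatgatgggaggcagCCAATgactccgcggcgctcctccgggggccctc

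The SMAD6 promoter held GTCTAGAC at position -12 from the start. This word was in 1 of the 12 member promoters searched and in 0.202% of the 35116 human promoters of the same length. The words were chosen after the sequences were seen, so the shares given here are no test of how unusual a match is. GGCGCC was in 3 of the 12 member promoters, at starts of BMP4, BMPR2 and GREM1, and in 19.2% of all promoters. GTCTG was in 8 of the 12 and in 45.3% of all promoters. Among the ID genes, ID3 held it at position -147 and ID4 at position -205, both on the other strand. TATAAA was at position -31 in ID1, where it overlaps its reverse complement at -33, at position -29 in ID4 and on the other strand at position -28 in BMPR1A, against 11.5% of all promoters. On either strand, CCAAT was in ID1, ID4, SMAD6 and a start of GREM1, and at 3 positions in ID2, against 34.6% of all promoters. These matches describe the letters in the window and no binding, and the counts, made per gene, do not show which start was used. Sequence outside the window was not searched, so a missing word here does not mean that a gene lacks it farther away.

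The rest of the pathway was taken from a list of 71 genes by role, written from general knowledge and not by how the genes moved, although the rise of SOST was known. Of these, 44 were tested, 15 fell and 11 rose in PELP1-KD cells at an adjusted p-value below 0.05, and 18 did not pass. The 26 genes past the threshold were 59.1% of those tested, against 46.9% of all tested genes, and the median log2FC was -0.08 against 0.0014 over all tested genes. Groups did not overlap in 29 of the 44, against 55% of all tested genes. With a log2FC beyond 1 as well, 2 of the 44 fell and 3 rose, against 171 and 243 of all 12796 tested genes. All adjusted p-values below are from edgeR's quasi-likelihood test over all tested genes.

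Besides BMP4, 4 ligand genes were tested, and each had under 10 CPM. BMP5 had 0.177, 0.616 and 0.620 CPM in control and 0.770, 0.797 and 1.53 CPM in PELP1-KD replicates. It rose by a log2FC of 1.10 (SE 0.39, adjusted p = 0.0238). GDF5, a ligand known from joint formation, fell from 1.08 CPM ± 0.159 to 0.526 CPM ± 0.289, a log2FC of -0.96 (SE 0.35, adjusted p = 0.0268). Both rest on at most 36 reads per replicate and were not past the threshold under DESeq2. BMP5 was also lost without control replicate 1 (0.76) or PELP1-KD replicate 3 (0.68), and GDF5 without control replicate 1 (-0.86) or without PELP1-KD replicate 1 (-0.62) or 2 (-1.05).

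Among 10 receptors and co-receptors, 7 were tested, 3 fell and 1 rose. This is 57.1% of those tested, against 46.9% of all tested genes. ACVR1, a type I receptor also called ALK2, had 29.7, 27.7 and 26.5 CPM in control and 33.6, 33.6 and 31.8 CPM in PELP1-KD replicates. All PELP1-KD values were above the controls, and ACVR1 rose by a log2FC of 0.24 (SE 0.063, adjusted p = 0.00369). BMPR1B, the type I receptor ALK6, had 2.31, 2.60 and 1.75 CPM in control and 0.770, 0.891 and 1.10 CPM in PELP1-KD replicates. It fell by a log2FC of -1.26 (SE 0.24, adjusted p = 1.74e-04). ACVRL1, the endothelial type I receptor ALK1, had between 2 and 4 reads per replicate and was not tested. The type II receptors ACVR2A and ACVR2B had a log2FC of 0.12 (SE 0.11, adjusted p = 0.408) and -0.03 (SE 0.077, adjusted p = 0.765).

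In the RPKM summed over the 4 type I receptors, BMPR1A held 17.2% ± 0.615 (SD, n = 3) in control and 13.1% ± 0.943 (SD, n = 3) in PELP1-KD cells. BMPR1B held 3.92% ± 0.639 and 1.51% ± 0.312, and ACVR1 held 78.5% ± 1.17 and 85.0% ± 1.03. The sum was 8.93 RPKM ± 0.612 in control and 9.72 RPKM ± 0.218 in PELP1-KD cells, and the shares depend on the length used. In CPM, with no length, BMPR1A held 36.6% and 30.0%, and ACVR1 held 58.5% and 67.8%. BMPR2 held 73.8% ± 1.05 of the type II receptor sum in control and 73.1% ± 2.15 in PELP1-KD cells.

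The co-receptor RGMB, which binds BMP ligands at the membrane, had 106, 108 and 108 CPM in control and 78.4, 80.0 and 79.9 CPM in PELP1-KD replicates. Its groups stood clear of each other, and RGMB fell by a log2FC of -0.43 (SE 0.041, adjusted p = 2.94e-08). NEO1, the neogenin receptor to which RGM proteins bind, had 12.1, 12.5 and 13.9 CPM in control and 7.18, 7.27 and 6.54 CPM in PELP1-KD replicates. It fell by a log2FC of -0.87 (SE 0.098, adjusted p = 3.81e-07). This ligand-binding partner and its receptor were thus both lower.

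Of the SMADs that carry the signal, SMAD5 fell and the other BMP SMADs did not pass the threshold. SMAD5 had 163, 156 and 157 CPM in control and 113, 99.2 and 105 CPM in PELP1-KD replicates. The groups were far apart, with a log2FC of -0.59 (SE 0.044, adjusted p = 9.2e-10). SMAD1 lay at 16.3 CPM ± 1.26 without and 15.3 CPM ± 0.529 with the knockdown (SD, n = 3 each), a log2FC of -0.10 (SE 0.081, adjusted p = 0.352). SMAD9 was 6.67 CPM ± 0.372 and 6.99 CPM ± 0.224, a log2FC of 0.06 (SE 0.11, adjusted p = 0.666). SMAD4, the partner shared with TGF-beta SMADs, had a log2FC of -0.15 (SE 0.058, adjusted p = 0.0443), which was not past the threshold under DESeq2, with library totals alone, without control replicate 1 (-0.13) or 2 (-0.14), or without PELP1-KD replicate 1 (-0.11) or 3 (-0.14).

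Secreted antagonists and modulators were listed with the rise of SOST already known. Of 19 listed genes 9 were tested, 3 fell and 5 rose. The genes past the threshold were 88.9% of those tested, against 46.9% of all tested genes. BMPER, which binds BMPs through chordin-like repeats as CRIM1 does, had 10.3, 10.4 and 11.0 CPM in control and 2.62, 3.80 and 2.21 CPM in PELP1-KD replicates. It fell by a log2FC of -1.88 (SE 0.14, adjusted p = 1.26e-09). SOST, which acts mainly as a Wnt inhibitor, had 0.591, 0.836 and 0.845 CPM in control and 13.6, 13.3 and 14.3 CPM in PELP1-KD replicates. It rose by a log2FC of 4.16 (SE 0.15, adjusted p = 1.49e-14), which was known from earlier results.

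Further tested genes of this role are named after their values were seen. NOG encodes noggin, which binds BMP4 and blocks its receptor contact. NOG had 62.1, 75.6 and 77.3 CPM in control and 43.9, 45.0 and 44.4 CPM in PELP1-KD replicates. It fell by a log2FC of -0.69 (SE 0.065, adjusted p = 2.87e-08), with its lowest control value in replicate 1. Per exon length NOG stood at 0.535 ± 0.0466 (SD, n = 3) times the level of BMP4 in control and at 0.496 ± 0.0133 (SD, n = 3) times its level in PELP1-KD cells, and these ranges overlapped. TWSG1, a modulator that joins chordin and BMPs, fell by a log2FC of -0.49 (SE 0.058, adjusted p = 7.7e-07). FSTL3 and FST, which bind activins and more weakly BMPs, rose by a log2FC of 0.81 (adjusted p = 6.1e-11) and 0.19 (adjusted p = 0.0195). BMP1, which is a protease that cuts chordin and not a ligand, rose by a log2FC of 0.43 (adjusted p = 8.03e-04). TLL2, a related protease, had a log2FC of -0.43 (adjusted p = 0.438) from at most 12 reads per replicate.

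**Figure D4:**
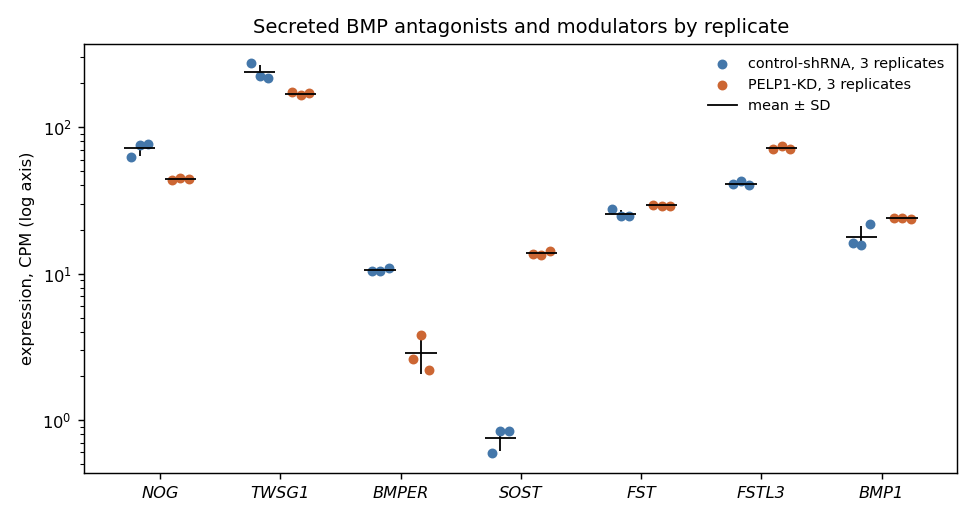
Expression in CPM on a log axis of 7 secreted antagonists and modulators in 3 control-shRNA (blue) and 3 PELP1-KD (orange) replicates, with black lines for the mean and the SD. NOG, TWSG1 and BMPER are lower and SOST, FST, FSTL3 and BMP1 are higher in every PELP1-KD replicate than in every control replicate.

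Among 12 tested inhibitors inside the cell and at the membrane, 4 were lower, 3 were higher and 5 were not past the threshold. Those past it were 58.3% of the tested genes of this role, against 46.9% of all tested genes. SMAD7, the other inhibitory SMAD and a target of TGF-beta as well as BMP signaling, had 9.64, 8.80 and 8.90 CPM in control and 15.0, 14.3 and 13.7 CPM in PELP1-KD replicates. Its groups were clear of each other, and SMAD7 rose by a log2FC of 0.66 (SE 0.089, adjusted p = 4.5e-06), next to the 0.48 of SMAD6. SMURF2, a ubiquitin ligase that marks SMADs and receptors for breakdown, stood at 310 CPM ± 7.38 without and 209 CPM ± 5.45 with the knockdown (SD, n = 3 each) and fell by a log2FC of -0.57 (SE 0.033, adjusted p = 2.2e-11). FKBP1A, which keeps type I receptors silent without ligand, fell by a log2FC of -0.37 (SE 0.033, adjusted p = 9.13e-09), and its counts are uncertain where reads are shared with near-identical copies.

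Of 10 other transcription factors reported to respond to BMPs, 6 were tested, 2 fell and 1 rose. This is 50% of those tested, near the 46.9% of all tested genes. ATOH8 had 5.56, 5.81 and 4.84 CPM in control and 3.64, 3.42 and 3.57 CPM in PELP1-KD replicates. It fell by a log2FC of -0.61 (SE 0.13, adjusted p = 7.88e-04). RUNX2, the regulator of bone formation, fell by a log2FC of -0.24 (SE 0.055, adjusted p = 0.0014). MSX2 rose by a log2FC of 0.41 (SE 0.14, adjusted p = 0.0225), which was not past the threshold under DESeq2, without control replicate 1 (0.32) or 2 (0.35), or without PELP1-KD replicate 1 (0.41) or 2 (0.36).

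The E proteins that ID proteins bind were close to level. TCF3 lay at 186 CPM ± 11.5 without and 175 CPM ± 9.91 with the knockdown (SD, n = 3 each), a log2FC of -0.09 (SE 0.046, adjusted p = 0.117). TCF3 was past the threshold without control replicate 1 (-0.14), without PELP1-KD replicate 2 (-0.14) and in the fit with a replicate block (-0.09). TCF12 was 83.8 CPM ± 2.96 and 80.3 CPM ± 3.73, a log2FC of -0.06 (SE 0.047, adjusted p = 0.298). Neither had an unadjusted p-value below 0.05 (0 of 2 by edgeR and 0 of 2 by DESeq2). TCF4 had between 0 and 2 reads per replicate and was not tested.

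**Figure D5:**
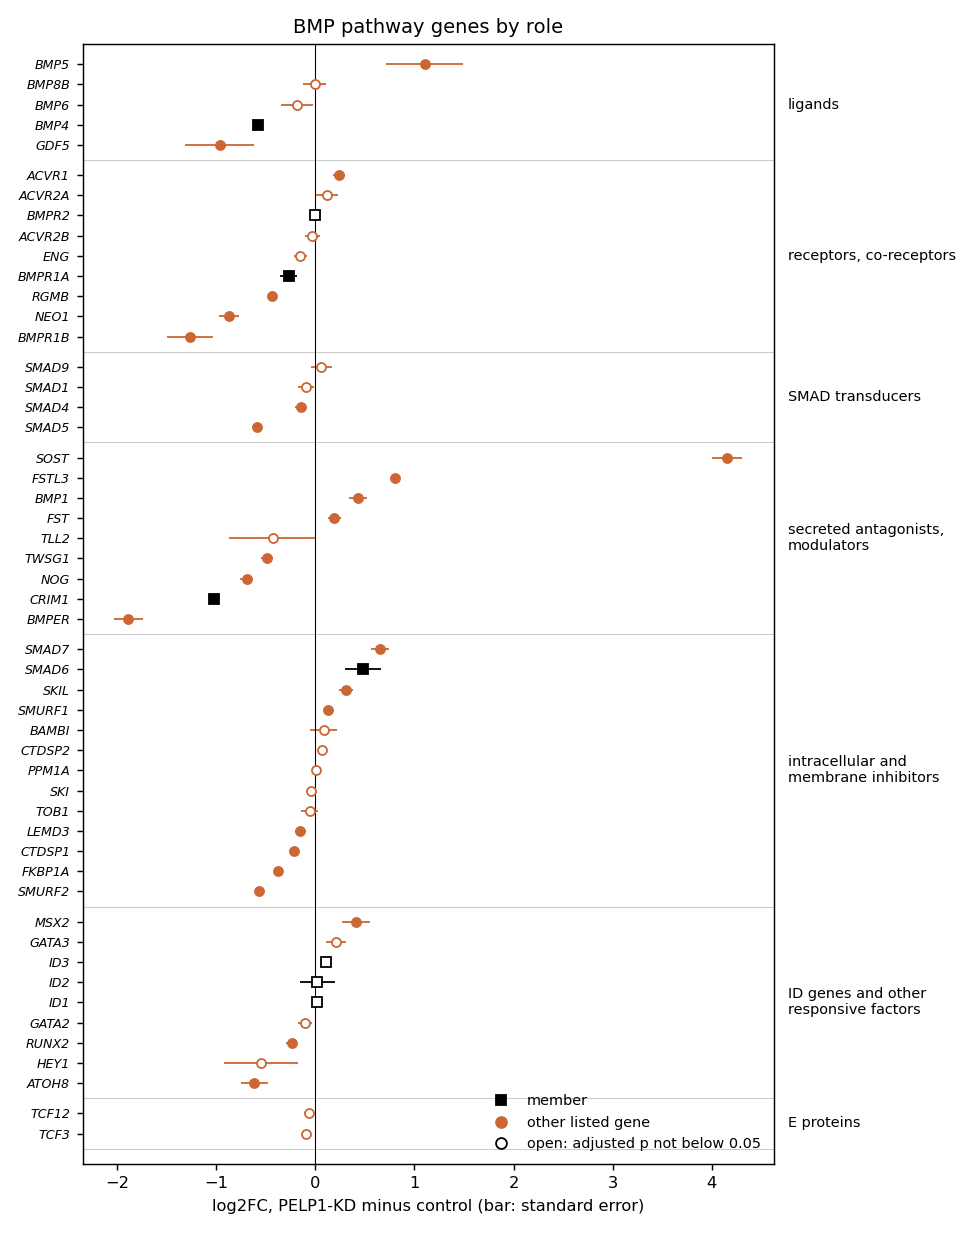
Log2FC (PELP1-KD minus control, bar for the standard error) of tested pathway genes grouped by role, with black squares for the members, orange circles for the other listed genes and open symbols for genes with an adjusted p-value not below 0.05. SOST and BMP5 lie above 1, BMPER, BMPR1B and CRIM1 lie below -1, and the ID genes and E proteins lie near 0.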

How the data were processed

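RNA-seq of MDA-MB-231 control-shRNA and PELP1-KD cells, with 3 replicates each, was analyzed from the deposited counts of reads per gene symbol, which the authors left without normalization. The submitters' processing notes name bcl2fastq, TopHat2, SAMtools, HTSeq and the build hg19, and the strand setting and the gene annotation are not given in the sources used here. Rows for reads not assigned to a gene, which were between 41.0% and 41.4% of each table (between 32.5% and 32.9% with no unique alignment), were left out.

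Genes passing filterByExpr (minimum of 10 counts) were scaled by TMM and tested with the quasi-likelihood test of edgeR 4.0.16 in R 4.3.3, with Benjamini-Hochberg adjustment over 12796 genes. Standard errors were derived from the log2FC and its quasi-likelihood F statistic. RPKM used exon lengths of GENCODE on GRCh38. Alternatives were RLE, library totals, DESeq2 1.42.0, voom in limma 3.58.1, other filters, a replicate block and leaving out each replicate.

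The members, the pathway lists and the markers were chosen with earlier results of these data known. The genes named are the members, PELP1, the type I and II receptors, the SMADs and SMAD7 and the E proteins. In each role up to 3 genes with the largest change were added. These were taken among genes past an adjusted p-value of 0.05 with groups that do not overlap. Any other pathway gene given with values is marked as chosen after its values were seen, and BMP8A and BMP8B are named without values. For 1 gene under this rule the values are not reported here.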

Additional observations from a re-analysis of the deposited data

How the results depend on the processing

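Under the 13 alternatives the number of members past the threshold on the lower side lay between 2 and 4 (3 as given), the highest with no filter on low counts, where ID4 was added, and BMP4 and CRIM1 passed under each of the 13. The number of members on the higher side, 1 as given, was 2 with library totals alone, 2 with the replicate block and 0 under DESeq2 (0 also at an unadjusted p-value below 0.05), and between 0 and 2 with each replicate left out, since SMAD6 and ID3 lie near the threshold. The number of other pathway genes that rose, 11 as given, was 7 under DESeq2, and with a log2FC beyond 1 the other pathway genes were 2 lower and 3 higher. With each replicate left out, between 13 and 16 of them fell and between 8 and 11 rose. Same-numbered replicates do not pair by their deviations from the group means (correlations of 0.039, 0.065 and -0.078, with 2 of 6 libraries correlating best with their own number), and the block moved the other pathway genes to 16 lower and 11 higher. The ID shares depend on the length used. In CPM, with no length, ID1 held 56.5% in control and 55.2% in PELP1-KD cells, ID3 42.1% and 43.5%, ID2 1.34% and 1.30%, and ID4 0.144% and 0.0282%. By the longest coding transcript, an alternative chosen after seeing the data, ID1 held 57.1% and 55.8% and ID3 42.0% and 43.4%. The log2FC of PELP1 lay between -0.99 and -0.92.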
